A study of Homo sapiens with 8 samples.

Results

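The 8 genes described here encode the core of human polyamine metabolism, and the data are the mTOR-bound regions around them in LNCaP prostate cancer cells. The genes are ODC1, AMD1, SRM and SMS (synthesis), SAT1 and SMOX (catabolism), and OAZ1 and AZIN1 (the antizyme system). A peak belongs to a gene when the authors' annotation names that gene for it and places it within 50 kb of a transcription start site (TSS). This gave 54 peaks at 7 of the 8 genes, out of 125713 peaks in 4 peak lists. Merging overlapping peaks of the lists into union regions left 18 regions at these genes, of 61118 in all.

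Polyamines (putrescine, spermidine and spermine) are small cations that bind nucleic acids and are needed for growth. Ornithine decarboxylase (ODC1) makes putrescine, and spermidine and spermine synthase (SRM, SMS) extend it with aminopropyl groups that come from the product of S-adenosylmethionine decarboxylase (AMD1). Spermidine/spermine acetyltransferase (SAT1) and spermine oxidase (SMOX) break the longer polyamines down. Antizyme (OAZ1) sends ODC1 to the proteasome, and the antizyme inhibitor AZIN1, an inactive relative of ODC1, releases it. The prostate is known for very high polyamine secretion, and mTOR complex 1 is known to control AMD1 at the protein level.

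mTOR is the growth-controlling kinase, here precipitated with the chromatin it was cross-linked to. LNCaP is an established, androgen-responsive human prostate cancer line. All groups were first kept for 48 h without androgen in medium with 2% charcoal-stripped serum. Cells with an empty hairpin vector (shEV) or with a hairpin against the pioneer factor FoxA1 (shFoxA1) then received ethanol vehicle (EtOH, 0.1%) or 10 nM of the synthetic androgen R1881 for 24 h. The labels do not say whether a hairpin line is a pool or a clone. There was 1 precipitated library in each of the 4 groups, so no difference has a replicate check and no p-value is given. The shEV lists held 24948 peaks with EtOH and 26074 with R1881, and the shFoxA1 lists 35121 and 39570. Where 4 values are given in library order, the order is shEV EtOH, shEV R1881, then shFoxA1 with the same treatments. Read depth is unknown, so a longer list cannot be told apart from a deeper or better enriched library. Peaks carry no RNA levels, so neither the cells' identity nor the knockdown was checked here.

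The start-site sequences that follow are shown because peaks lay over them: at the outer ODC1 start and OAZ1 in every list, at the inner ODC1 E-boxes in every list but shEV EtOH, at the outer AMD1 start in both shFoxA1 lists, and at SRM in shFoxA1 EtOH. They come from RefSeq (GRCh38.p14, hg38, the build in the submitters' processing notes), whose promoter table covered 6 of the 8 genes. Each run is 5′ to 3′ along the gene's strand. Of the runs, 4 hold the 250 bases before the start and 5 bases from it on, and each of the other 2, at the inner ODC1 start, is an E-box with 10 bases on either side. Capitals mark the E-box CACGTG and the cyclic-AMP response element half-site TGACG, on either strand.
ODC1 outer start, chr2:10448323-10448577, minus strand: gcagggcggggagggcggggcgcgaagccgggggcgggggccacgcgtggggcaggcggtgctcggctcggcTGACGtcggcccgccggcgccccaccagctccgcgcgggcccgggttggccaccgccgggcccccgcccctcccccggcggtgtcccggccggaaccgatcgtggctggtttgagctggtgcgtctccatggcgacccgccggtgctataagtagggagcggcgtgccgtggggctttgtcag
ODC1 inner start, first E-box, chr2:10448026-10448051, minus strand: gggccccgggCACGTGtgcggcgcgc
ODC1 inner start, second E-box, chr2:10447992-10448017, minus strand: cctgcggagaCACGTGgtcgccgagc
OAZ1, chr19:2269236-2269490, plus strand: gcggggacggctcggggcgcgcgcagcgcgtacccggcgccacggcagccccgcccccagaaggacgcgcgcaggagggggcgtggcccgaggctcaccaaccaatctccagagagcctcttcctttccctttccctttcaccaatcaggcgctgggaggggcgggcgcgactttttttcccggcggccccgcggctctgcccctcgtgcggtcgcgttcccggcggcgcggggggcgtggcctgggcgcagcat
AMD1 outer start, chr6:110814367-110814621, plus strand: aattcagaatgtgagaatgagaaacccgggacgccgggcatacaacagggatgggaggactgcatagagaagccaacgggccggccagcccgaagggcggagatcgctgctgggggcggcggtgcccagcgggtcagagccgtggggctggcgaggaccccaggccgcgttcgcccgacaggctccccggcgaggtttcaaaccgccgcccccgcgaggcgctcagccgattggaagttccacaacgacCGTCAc
SRM, chr1:11060014-11060268, minus strand: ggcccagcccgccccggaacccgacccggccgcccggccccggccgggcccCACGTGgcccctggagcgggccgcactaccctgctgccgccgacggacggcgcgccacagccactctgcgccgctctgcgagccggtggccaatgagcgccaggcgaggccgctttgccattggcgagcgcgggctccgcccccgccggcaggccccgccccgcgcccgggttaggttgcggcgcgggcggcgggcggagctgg

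Among the synthesis and antizyme genes, ODC1 and OAZ1 had a strong promoter peak in every list, AMD1 had mostly repeat-borne regions, SRM had a repeat-borne region in every list, and SMS had a distal region in the R1881 lists. The catabolic genes SAT1 and SMOX had distal peaks in R1881 lists, and no peak was named for AZIN1. In shEV EtOH 4 of the 8 genes had a peak, where 36.5% of all 20037 protein-coding genes did. In shEV R1881 it was 6 of 8 beside 37.5%. In shFoxA1 EtOH it was 4 of 8 beside 49.1%, a share close to that of all genes. In shFoxA1 R1881 it was 7 of 8 beside 51.6%. The genes that separate the R1881 lists from the EtOH lists in this count were SMS, SAT1 and, with the FoxA1 hairpin, SMOX. With 8 genes, each one moves the share by a large step. Kept to the 10000 top-scoring peaks of each list, the counts were 4, 4, 4 and 5 of 8 in library order.

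**Figure D1:**
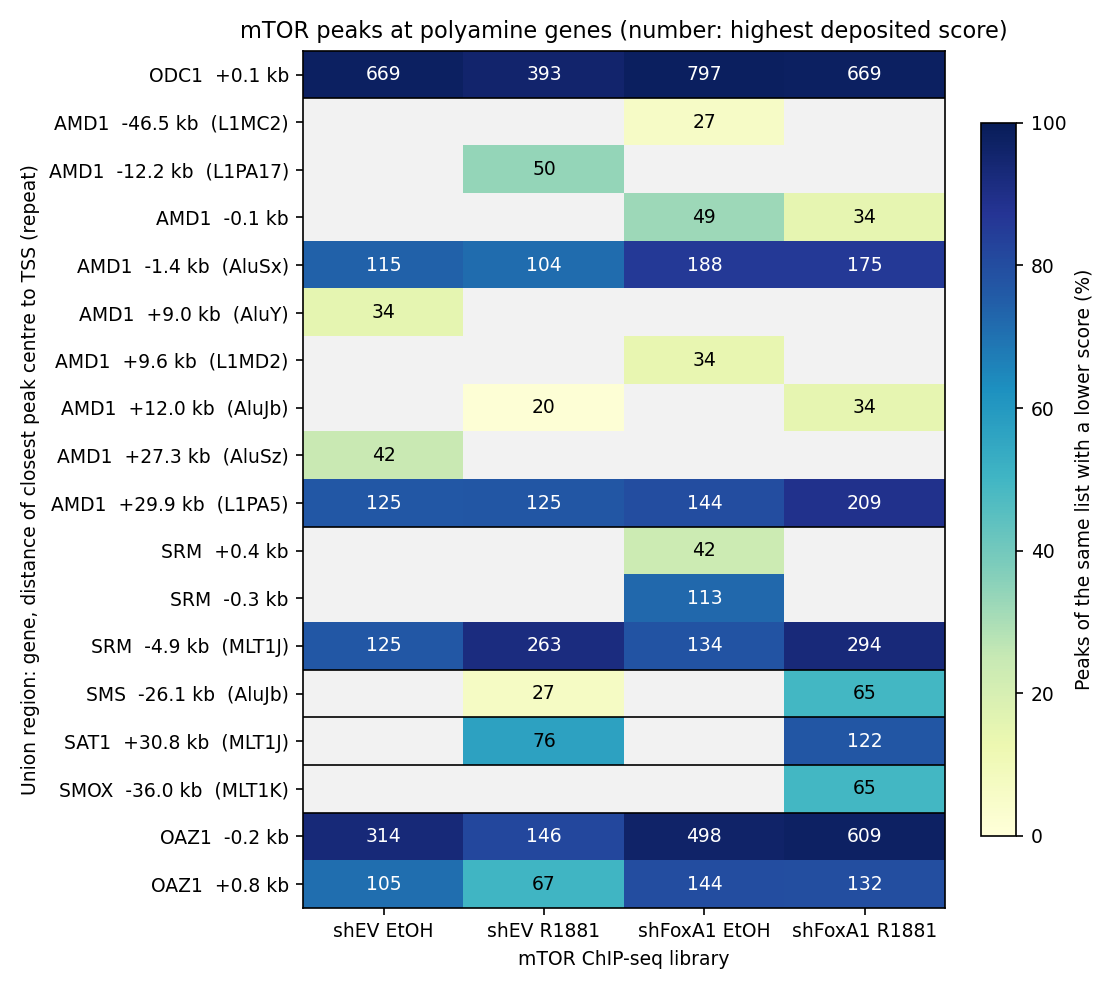
Rows are the 18 union regions at the 8 genes, labelled with the distance of the closest peak centre to a TSS and, where annotated, a repeat; columns are the 4 libraries. The number is the highest deposited score of a peak there, the colour is the percentage of peaks of the same list with a lower score, and grey means no peak. ODC1 and the OAZ1 promoter are dark in all 4 columns, and the SMS and SAT1 rows are filled in the R1881 columns.

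ODC1, the gene of the first enzyme of the pathway, carried 1 peak in each list, always over its promoter. The peak had a deposited score of 669 (EtOH) and 393 (R1881) in shEV cells, and of 797 (EtOH) and 669 (R1881) in shFoxA1 cells. A score is the authors' own value for a peak, has no stated definition and ranks peaks only within a list. These scores were above 97.9%, 95.4%, 98.3% and 97.9% of the peaks of their lists, and above 98.7%, 97.8%, 99.1% and 99.0% of the promoter peaks. The peak ran from 10448124 to 10449163 on chromosome 2 in shEV EtOH, and from 10447963 to 10449044 in shEV R1881. In shFoxA1 EtOH it was the narrowest, at 729 bp (10447869 to 10448597), and in shFoxA1 R1881 the widest, at 1961 bp (10447477 to 10449437). Its G and C content was 74.8%, 76.9%, 79.0% and 68.6% in the same order, above at least 93.3% of the peaks of each list.

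ODC1 has RefSeq starts at 10448327 (outer) and 10448012 (inner), and the stretch round the inner one has the 2 E-boxes shown above. They are at 10448036 to 10448041, starting 29 bp before that start site, and at 10448002 to 10448007, just inside the transcript. Both lay inside the peaks of shEV R1881, shFoxA1 EtOH and shFoxA1 R1881 and outside the edge of the shEV EtOH peak, which stopped at 10448124. Of 22199 RefSeq promoter windows of 300 bases at coding genes, 8.34% held an E-box and 0.851% held 2 or more. The half-site TGACG was found at both ODC1 starts and in 27.9% of all windows. It was also found at both AMD1 starts, SMS and SAT1, and not at SRM or OAZ1. The searched letters of forkhead factors (TGTTTAC and TGTTTGC, in 2.85% and 3.40% of windows) and of the androgen receptor half-site (AGAACA, in 11.7%) were in none of the member windows. The full androgen receptor palindrome (inverted half-sites with a spacer) was in 0 of the windows of any coding gene. A match is a description of letters and not a binding site.

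OAZ1, the gene of antizyme 1, had 2 regions, both with peaks in all 4 lists. The promoter peak scored 314 (EtOH) and 146 (R1881) in shEV cells, and 498 (EtOH) and 609 (R1881) in shFoxA1 cells. Within the promoter peaks of the 4 lists it stood above 96.8%, 89.0%, 98.3% and 98.8%. On chromosome 19 it spanned 2269024 to 2269519 (EtOH) and 2268989 to 2269538 (R1881) in shEV cells, and 2268911 to 2269623 (EtOH) and 2268977 to 2269677 (R1881) in shFoxA1 cells, so that all 4 peaks reached over the start site at 2269486. No motif of those searched for was in the OAZ1 window.

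The other OAZ1 region spanned the gene body, 4901 bp from 2270023 to 2274923, and was cut into different numbers of peaks. In shEV cells there were 4 peaks with EtOH (scores 20, 34, 34 and 105) and 1 with R1881 (67). In shFoxA1 cells there was 1 with EtOH (144), and there were 3 with R1881 (49, 132 and 65). These peaks covered 52.3%, 30.5%, 77.6% and 68.4% of the region. The number of peaks therefore did not follow the covered length, since the single peak of shFoxA1 EtOH was 3804 bp long. The last of the shFoxA1 R1881 peaks, 2274223 to 2274923, was annotated to the transcript end of the neighbouring gene PEAK3.

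SRM, the spermidine synthase gene, had its only region shared by all 4 lists outside the promoter. An intergenic region with peak centres 4935 to 5242 bp upstream, in an MLT1J element of an ancient endogenous retrovirus family, had a peak in every list. With EtOH its score was 125 in shEV (11064574 to 11065332 on chromosome 1) and 134 in shFoxA1 cells (11065038 to 11065483). With R1881 it was 263 in shEV (11064871 to 11065368) and 294 in shFoxA1 cells (11064931 to 11065469). Within their own lists these peaks were above 76.8% and 77.8% of peaks with EtOH, and above 91.7% and 92.9% with R1881. MLT1J elements were the annotation of 261, 265, 346 and 357 peaks in library order.

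Close to the SRM start peaks were found in shFoxA1 EtOH alone. They lay on either side of the start site at 11060018 and did not cover it. One was a promoter peak from 11060096 to 11060535 (score 113, 71.4% G and C), above 77.3% of the promoter peaks of that list. The other lay in intron 1 of 7, 420 bp from the TSS (11059432 to 11059765, score 42). The E-box of the SRM sequence shown above, at 11060212 to 11060217, was inside the promoter peak. Regions found in shFoxA1 EtOH and no other list made up 14.7% of all union regions and were found at 17.5% of coding genes. Of the 8 members AMD1 and SRM had such regions. Counted over the 300-base promoter windows, peaks lay over a window of 13.2%, 11.7%, 26.1% and 25.0% of coding genes in library order.

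**Figure D2:**
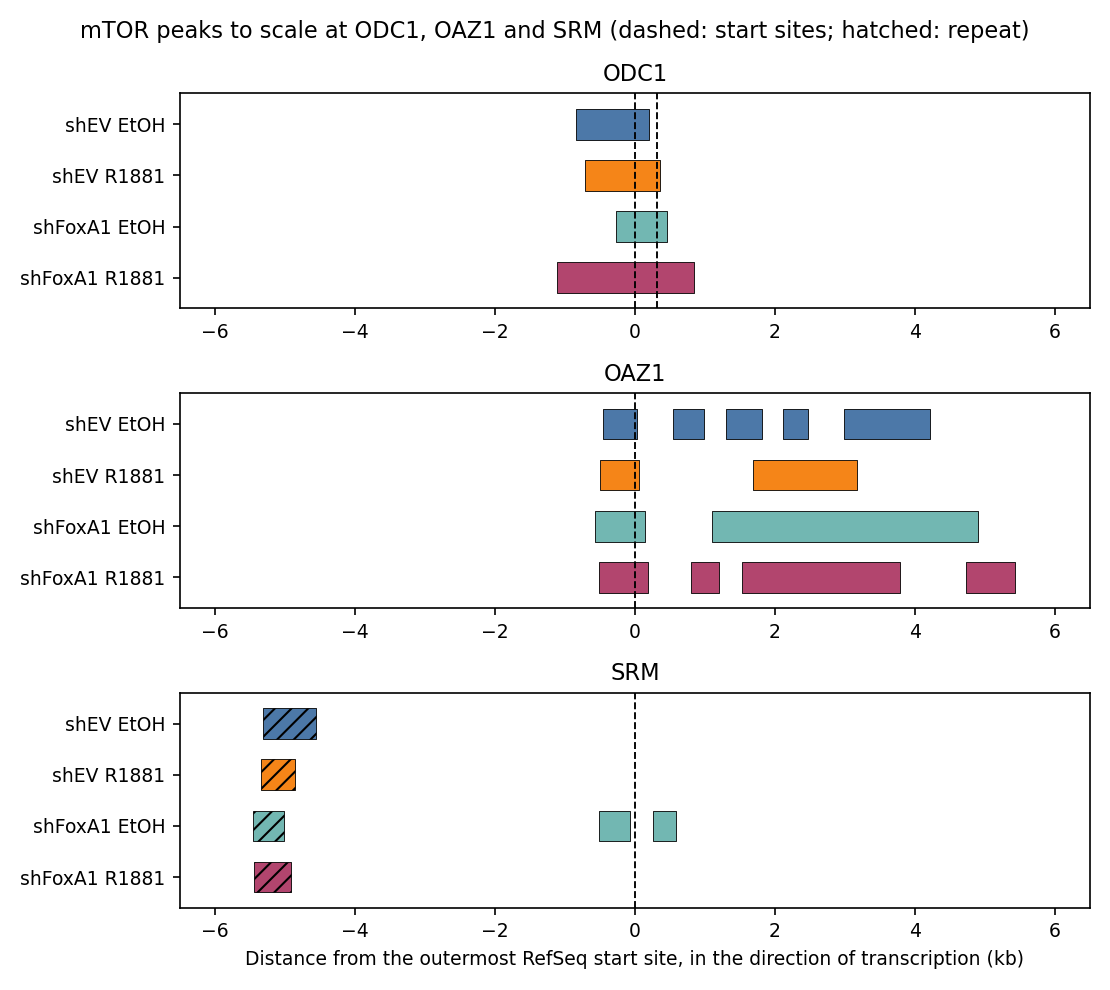
Peaks at ODC1, OAZ1 and SRM drawn to scale against distance in kb from the outermost RefSeq start, in the direction of transcription; each row is 1 library, dashed lines are start sites and hatching marks peaks annotated to repeats. Every list has a bar over the ODC1 and OAZ1 starts, while bars near the SRM start are in shFoxA1 EtOH and the hatched MLT1J peaks lie upstream in each row.

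AMD1, the gene of S-adenosylmethionine decarboxylase, had 9 of the 18 regions and 26 of the 54 peaks, 7 in each shEV list and 6 in each shFoxA1 list. Of the 20037 coding genes, 41 (0.205%, AMD1 included) had at least as many peaks over the 4 lists. List by list the share was 0.0898%, 0.150%, 0.769% and 1.22% in library order. These shares count peaks and not regions, and AMD1 was picked for them as the member with the most regions. The coding genes with the most similar peak numbers were ATF7IP, NAT1, ST3GAL1 and ZNF184, each with a summed difference of 2 peaks over the 4 lists, and H4C8 with 3. This likeness is one of counts alone. Repeats were annotated in 8 of the 9 AMD1 regions, and how uniquely reads map there was not tested.

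The widest AMD1 region, 7177 bp from 110904152 to 110911328 on chromosome 6, lay between genes, with peak centres 29925 to 36315 bp beyond the inner start, mostly in an L1PA5 element of the LINE-1 retrotransposon family. It held 13 of the 26 peaks. Its highest score was 125 in both shEV lists, and in shFoxA1 cells 144 with EtOH and 209 with R1881. Peaks covered 60.5%, 57.9%, 87.9% and 73.3% of it. Another region in all 4 lists lay in an AluSx element in intron 1 of 8, 1435 to 1521 bp before the inner start. The scores there were 115 (shEV EtOH, 110872996 to 110873577), 104, 188 and 175 in the same library order. That region stopped short of the inner start, whose promoter window had no peak in any list.

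The outer AMD1 start had peaks with the FoxA1 hairpin only. One lay at 110813903 to 110815152 in shFoxA1 EtOH (score 49, annotated as promoter) and the other at 110814324 to 110815262 in shFoxA1 R1881 (score 34, annotated as the 5′ untranslated exon 1 of 9). Both scores were low, above 32.3% and 14.5% of their lists. The 2 shEV lists had no peak over this window. Among coding genes 11.2% had a region in both shFoxA1 lists and in neither shEV list, a class with 6.91% of all union regions, and of the 8 members AMD1 did.

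The other 6 AMD1 regions were weak, with scores from 20 to 50, and 5 of them were in a single list. In intron 1 of 4 of a short transcript, 1 region had peaks with R1881 in both lines and none with EtOH: 110886573 to 110887054 in shEV R1881 (score 20) and 110886382 to 110887096 in shFoxA1 R1881 (score 34). The 2 regions farthest upstream, at 46471 bp and 12223 bp before the outer start, were in introns of CDK19, a Mediator kinase gene on the other side of that start. The peak at 46471 bp is the one just inside the 50 kb limit. Just outside it, CDK19 intron peaks at 50658 bp (shEV R1881, score 58) and 50646 bp (shFoxA1 R1881, score 49) were left out.

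**Figure D3:**
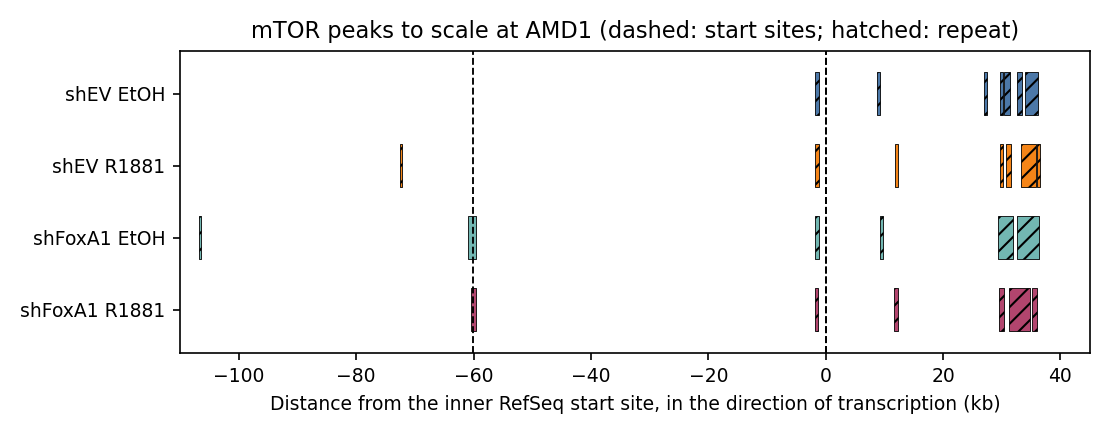
AMD1 peaks drawn to scale against distance in kb from the inner start, in the direction of transcription, with 1 row for each library; dashed lines are the start sites and hatching marks repeats. Each row has the AluSx peak just before the inner start and the L1PA5 group to its right, and the shFoxA1 rows add a bar at the outer start.

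SMS, the spermine synthase gene, had a single region, found in both R1881 lists. It was intergenic, in an AluJb element 26092 bp upstream of the TSS in shEV R1881 (chromosome X, 21914126 to 21914836, score 27) and 26052 bp upstream in shFoxA1 R1881 (21914356 to 21914687, score 65). The first score was above only 6.57% of its list and the second above 49.5%. Neither EtOH list had a peak named for SMS.

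SAT1, the gene of the acetyltransferase that starts polyamine breakdown and export, had the same pattern of presence. Its region was an MLT1J element 30927 bp beyond the TSS in shEV R1881 (chromosome X, 23813863 to 23814308, score 76) and 30842 bp beyond it in shFoxA1 R1881 (23813838 to 23814162, score 122). These scores were above 56.9% and 77.1% of their lists, and the EtOH lists had no SAT1 peak. The SAT1 and SMS promoter windows were free of peaks in all 4 lists.

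SMOX had 1 peak, in shFoxA1 R1881: an intergenic MLT1K element 36017 bp upstream (chromosome 20, 4112567 to 4112958, score 65, above 49.5% of that list). Regions found in that list alone made up 19.7% of all union regions and were found at 22.4% of coding genes. For AZIN1 no peak was named in any list. A weak peak of shFoxA1 EtOH (score 27, above 6.16% of the list) was annotated as promoter of an AZIN1 transcript. It ran from 102864722 to 102865386 on chromosome 8, upstream of the AZIN1 start at 102864200 on the minus strand. The authors' annotation assigned it to the antisense gene AZIN1-AS1, and it was not counted.

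The first comparison is that of R1881 with EtOH in cells with the empty vector. At the 8 genes 4 peaks were gained, meaning present with R1881 and overlapping none with EtOH, and 3 were lost. Gains were at AMD1 (2), SMS (1) and SAT1 (1), and losses at AMD1 (2) and OAZ1 (1). Over whole lists 45.0% of the shEV R1881 peaks were gained and 42.6% of the shEV EtOH peaks lost, beside 4 of 13 and 3 of 14 at these genes. At least 1 gained peak was found at 3 of the 8 genes, beside 21.1% of all coding genes, and a lost peak at 2 of 8, beside 19.2%. The lost OAZ1 peak was the weak one of score 20 in intron 1. ODC1 and SRM had neither.

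The second comparison repeats the androgen treatment with the FoxA1 hairpin. Again 4 peaks were gained, at AMD1, SMS, SAT1 and SMOX with 1 each, and 4 were lost, 2 at AMD1 and 2 at SRM. Over whole lists the shares were 44.5% gained and 37.5% lost, beside 4 of 15 and 4 of 12. That is 4 of 8 genes with a gain (29.3% of coding genes) and 2 of 8 with a loss (23.1%). The lost SRM peaks were those near its start. Regions with R1881 peaks in both lines and no EtOH peak were found at 3 of the 8 genes, AMD1, SMS and SAT1, beside 6.82% of coding genes. They were 3 of the 18 regions, beside 5.27% of all union regions. The reverse pattern, both EtOH lists only, was found at 0 of the 8, beside 3.77% of coding genes and 3.21% of regions. These 2 androgen comparisons share no library with each other. All the SMS, SAT1 and SMOX peaks were in repeats, as were the AMD1 peaks of shEV EtOH and the SRM peaks of every list but shFoxA1 EtOH. Without peaks annotated to repeats 2, 3, 4 and 3 of the 8 genes had a peak, in library order. Within 10 kb of a TSS it was 4 of 8 in every list.

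The knockdown was compared within each treatment, with the same 4 libraries as the androgen comparisons. In EtOH, shFoxA1 against shEV, 5 peaks were gained (3 at AMD1 and 2 at SRM) and 3 lost (2 at AMD1 and 1 at OAZ1). Over whole lists 49.2% of peaks were gained and 28.0% lost. This was a gain at 2 of 8 genes beside 31.5% of coding genes, and a loss at 2 of 8 beside 12.3%. In R1881 there were 4 gained peaks (2 at OAZ1, 1 at AMD1 and 1 at SMOX) and 2 lost, both at AMD1. Over whole lists the shares were 52.8% and 27.9%. Gains touched 3 of 8 genes beside 35.9%, and losses 1 of 8 beside 13.1%, which puts the members' gains near or below the background in both treatments. No region at the 8 genes was limited to both shEV lists, a pattern of 0.967% of all regions and at 1.03% of coding genes. In genes with a peak annotated as promoter the lists differed by AMD1 and SRM: in shEV cells 2 of 8 genes had one with EtOH (10.3% of coding genes) and 2 with R1881 (9.79%), and in shFoxA1 cells 4 with EtOH (18.6%) and 2 with R1881 (18.5%). The AMD1 start peak of shFoxA1 R1881 is not in that count because its centre was annotated to the 5′ untranslated exon.

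**Figure D4:**
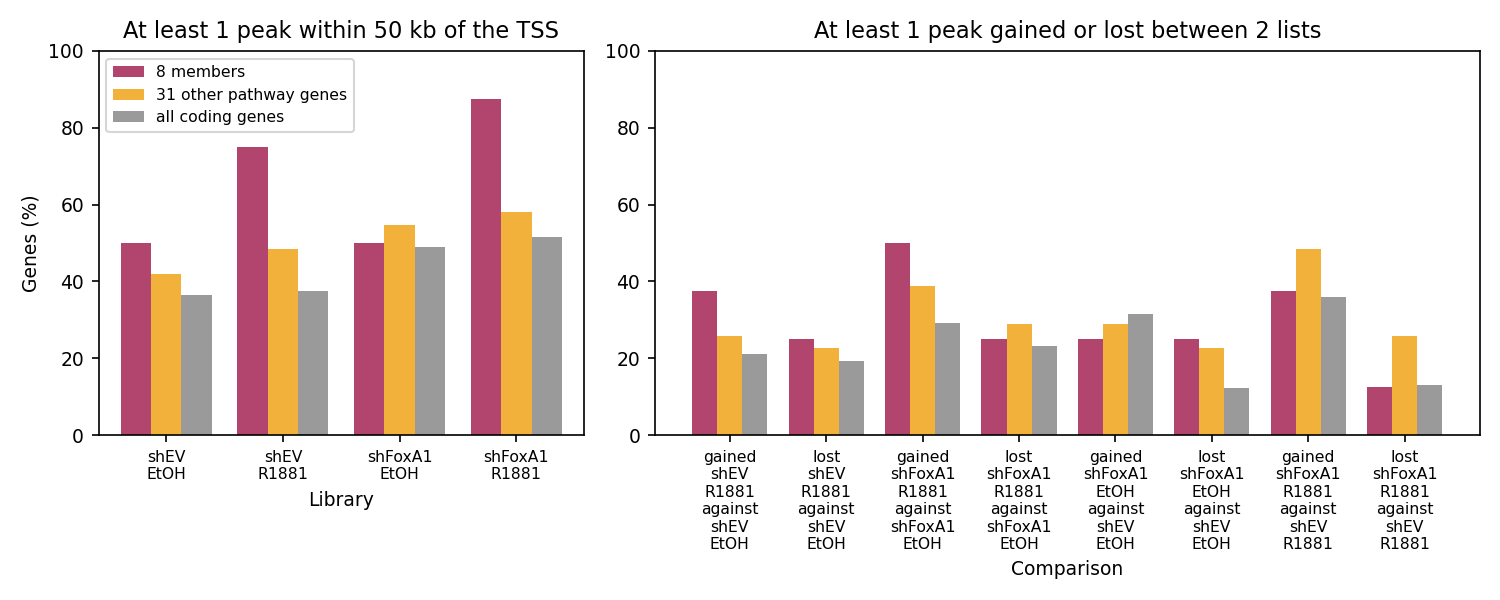
Percentage of genes with at least 1 peak in each library (left) and with at least 1 gained or lost peak in each comparison (right), for the 8 members, 31 other pathway genes and all coding genes. The members' bars stand at 6 and 7 of 8 genes in the R1881 lists and at 4 of 8 in the EtOH lists, while each step of a member bar is 1 gene.

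Repeats were annotated in 8 of 14, 9 of 13, 6 of 12 and 9 of 15 member peaks in library order, beside 70.6%, 68.6%, 63.3% and 62.0% of all peaks. The member peaks outside repeats were mostly richer in G and C. In shEV EtOH the 6 member peaks outside repeats had 58.1% to 74.8% G and C and the 8 in repeats 36.4% to 52.3%, with no overlap. Those 6 were 1 ODC1 peak and 5 OAZ1 peaks, of which 4 lay in the gene-body region. In shFoxA1 EtOH the ranges were 62.0% to 79.0% and 38.3% to 46.2%, and in shFoxA1 R1881 56.1% to 75.5% and 38.0% to 53.4%. In shEV R1881 they overlapped, at 43.4% to 76.9% and 39.1% to 52.9%. The same split over all peaks is not given here, so the contrast cannot be called particular to these genes. A region in all 4 lists was found at 4 of the 8 genes (ODC1, AMD1, SRM and OAZ1), beside 22.2% of coding genes, and 6 of the 18 regions had that pattern, beside 19.0% of all regions.

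The 31 other genes of the pathway cover precursor supply, further antizymes, relatives of SAT1 and SMOX, methylthioadenosine salvage, hypusination and transport. In library order, 13, 15, 17 and 18 had a peak (41.9%, 48.4%, 54.8% and 58.1%, beside 36.5%, 37.5%, 49.1% and 51.6% of coding genes). Genes with peaks in every list included the arginase gene ARG1, OAT (ornithine aminotransferase), AZIN2, MRI1, ADI1, EIF5A2, DHPS, SLC3A2, SLC22A2 and SLC22A3. MRI1, of methylthioadenosine salvage, and DHPS, deoxyhypusine synthase, which uses spermidine to modify the translation factor eIF5A, had a promoter peak in every list. No peak was named for 10 genes: ARG2, AGMAT, MAT2B, OAZ2, SATL1, APIP, EIF5A, ATP13A2, ATP13A4 and SLC18B1.

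Regions in both R1881 lists only were found at 5 of the 31 genes (16.1%, beside 6.82% of coding genes): ARG1, EIF5A2, MTAP, SLC7A1 and SLC22A3. At ARG1, which makes ornithine from arginine, the region lay outside repeats 24585 bp upstream and scored 157 in shEV R1881 and 153 in shFoxA1 R1881. At SLC22A3, an organic cation transporter gene, it was in intron 1 of 10, with scores of 50 and 102. SLC7A1, an arginine transporter gene, had scores of 85 and 34 in its first intron, and its shFoxA1 R1881 peak was in an AluY element. The regions at EIF5A2 (scores 34 and 74 in the same order) and MTAP (34 and 34) were in repeats. Regions in both EtOH lists only were found at 0 of the 31, beside 3.77% of coding genes.

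A region limited to both shEV lists was at 1 of the 31 genes, SLC22A2 (3.23%, beside 1.03% of coding genes). Regions limited to both shFoxA1 lists were at 4 of the 31 (12.9%, beside 11.2%), a share close to that of all genes. These 4 were MAT2A, ENOPH1, DOHH and SLC3A2. The regions at MAT2A (S-adenosylmethionine synthesis), DOHH (the second hypusination enzyme) and SLC3A2 (an amino acid transporter subunit) had promoter peaks. These peaks were annotated as promoter in both shFoxA1 lists, with scores from 27 to 66. The SLC3A2 region held a further shFoxA1 R1881 peak, in a non-coding exon (score 34). In R1881, shFoxA1 against shEV, 15 of the 31 genes (48.4%) had a gained peak and 8 (25.8%) a lost one. All coding genes gave 35.9% and 13.1%, as above. In EtOH, shFoxA1 against shEV, 9 (29.0%) had a gain, beside 31.5%, and 7 (22.6%) a loss, beside 12.3%. For R1881 against EtOH in shEV, 8 (25.8%) had a gain, beside 21.1%, and 7 (22.6%) a loss, beside 19.2%. The same in shFoxA1 gave 12 (38.7%) and 9 (29.0%), beside 29.3% and 23.1%.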

How the data were processed

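Peak lists from 4 mTOR chromatin immunoprecipitation libraries were used, with the 4 inputs left out as not analysed here. The build was hg38 and the tools, in no stated role or order, included HOMER 4.11.1, MACS2, BWA 0.7.12, deepTools 3.5.0, Picard 2.0.1 and Trimmomatic 0.36, per the submitters' processing notes. Per the file headers the lists are HOMER annotations, and peak names carry 1 library each. No label or header gives the peak threshold or the control. Each score, as deposited, was compared only with others of its list. The authors' G and C fraction is printed as a percentage. Gene, distance and annotation class are as deposited by the authors.

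Python 3.11.15 with pandas 2.3.3 was used. Peaks on chromosomes 1 to 22, X and Y were kept, which left out 2202 of 127915. Overlap means at least 1 bp, and overlap functions were tested on simulated data. The background is 20037 RefSeq coding genes, matched by gene identifier, and 15843 of them have a promoter window. All 8 members and all 31 other genes matched. Members and lists were chosen with earlier results of these data known. All members' peaks are described. Other pathway genes are named by presence pattern, and 1 of them is not reported here. Alternatives changed the window, score, repeats, gene assignment and overlap rule. With 1 library per group no test was possible.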

Additional observations from a re-analysis of the deposited data

Results flagged for a closer look

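The number of peaks at OAZ1 moved in opposite directions in the 2 androgen comparisons: it changed by -3 with R1881 in shEV (from 5 to 2 peaks) and by 2 in shFoxA1 (from 2 to 4), 5 apart. The same 4 values give changes of -3 in EtOH and 2 in R1881 between the hairpins. The difference was not tested, since each group is 1 library. Its promoter had 1 peak in every list, and the peak number changed in the gene-body region. There 1 shEV EtOH peak overlapped none of shEV R1881, and 2 shFoxA1 R1881 peaks overlapped none of shEV R1881. Peaks covered 2563 bp (EtOH) and 1494 bp (R1881) of it in shEV cells, and 3804 bp (EtOH) and 3352 bp (R1881) in shFoxA1 cells.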

How the results depend on the processing

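Of the alternatives to the counts of members with a peak and of gained and lost peaks, a 100 kb window changed none by more than 1.5 times. A 10 kb window left 4 members with a peak in shFoxA1 R1881, 0 gained peaks in either androgen comparison and 0 lost peaks for shFoxA1 against shEV in R1881. Without repeats, members with a peak were 2 in shEV EtOH, 3 in shEV R1881 and 3 in shFoxA1 R1881. Gained and lost peaks follow for R1881 against EtOH in shEV, the same in shFoxA1, shFoxA1 against shEV in EtOH, and the same in R1881. They were 1 and 1, 0 and 2, 3 and 1, and 3 and 1 without repeats. Kept to the 10000 top-scoring peaks per list, they were 0 and 1, 1 and 1, 1 and 0, and 2 and 0. Members with a peak were then 4 in each shEV list, 4 in shFoxA1 EtOH and 5 in shFoxA1 R1881. SMS and SMOX had a peak in 0 of these shortened lists, and SAT1 in 1. With scores of at least 50 the gained and lost peaks were 2 and 1, 3 and 1, 1 and 0, and 3 and 1. When 50% or more of both peaks had to overlap, they were 6 and 7, 9 and 6, 9 and 11, and 7 and 5. With peaks within 500 bp counted as shared, they were 4 and 2, 4 and 4, 3 and 1, and 3 and 1. With every peak within 50 kb of a member's TSS, whatever gene was named, they were 8 and 4, 13 and 8, 9 and 3, and 11 and 3, and AZIN1 had a peak in 1 list. The causes of these shifts were not tested beyond the construction of each alternative.

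Each group is 1 library, so hairpin, treatment and library cannot be told apart. Read depth, the peak threshold and the meaning of the score limit what a missing peak shows, and a missing peak is not absence of binding. No paired analysis was possible because each group has 1 library and no result comes from a test.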

Other observations

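The lists also name AMD1 for 16 regions beyond 50 kb, with 7, 9, 8 and 11 peaks in library order (shEV EtOH, shEV R1881, then shFoxA1 with the same treatments), and all 16 have a peak in an intron of CDK19. Of these regions 4 were in all 4 lists, 2 in both R1881 lists only and 1 in both EtOH lists only. Among these regions the highest score in each list, tied in shEV EtOH and shFoxA1 EtOH, was at an AluJb element. This element lay 148797 bp before the outer start in shEV EtOH. Its scores were 158 (EtOH) and 434 (R1881) in shEV cells, and 223 (EtOH) and 624 (R1881) in shFoxA1 cells. A MER11A element, 71939 bp before the outer start in shEV EtOH, scored 158, 214, 223 and 164 in the same order.

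A further region in both R1881 lists only lay in intron 1 of AMD1's long transcript. It was assigned to CDK19 (scores 20 in shEV R1881 and 27 in shFoxA1 R1881). In intron 1 of 7 of SMOX, a GC-rich peak of shFoxA1 R1881 (score 34, 67.9% G and C) was assigned to LINC01433.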
